A study of Homo sapiens with 16 samples.

Results

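The response of HCT116 cells to curcumin was described across 10559 protein-coding genes, which were those with at least 1 FPKM in at least 2 of the 4 HCT116 libraries of the curcumin experiment. The table listed 19914 protein-coding genes among 60560 genes of all types. FPKM, fragments per kilobase of transcript scaled to library depth, is a level corrected for gene length and library depth. HCT116 is an established epithelial cell line from a human colorectal carcinoma. Cells were treated with curcumin for 16 h (2 libraries) or belonged to the non-treated control of the same experiment (2 libraries). Curcumin is the main polyphenol of turmeric, and according to the methods it was given as a turmeric extract of curcuminoids and essential oils dissolved in dimethyl sulfoxide. The labels give no concentration and name no vehicle for the controls. The paper states that its later experiments used concentrations set for each cell line, with more curcumin for SW480 than for HCT116 cells. The sequencing is described after that statement, so by the paper's account the dose differed between the lines. The sequencing methods do not repeat a concentration. SW480 cells, another human colorectal carcinoma line, were treated alongside with 2 curcumin and 2 control libraries, and served for comparison. The series holds 16 libraries in all, and no label tells whether the paired libraries of a group stem from independent cultures, so p-values measure only how far these libraries scatter, which may be technical.

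The cell line was checked against its markers. Of 15 colon epithelial markers, 10 reached the level for inclusion, among them EPCAM at 133 and 148 FPKM in the curcumin libraries and 127 and 136 FPKM in the controls, while the differentiation markers CDX1 and KRT20 were at 0 in all 4 libraries and VIL1, CDH17 and LGALS4 were below 1 FPKM. None of 12 immune markers reached 1 FPKM, and their summed level was 1.28 and 1.26 FPKM with curcumin and 1.77 and 1.56 FPKM in the controls. Of 13 stromal and endothelial markers, 1 reached the level for inclusion. It was COL1A1, with 3.10 and 2.49 FPKM with curcumin and 3.31 and 3.73 FPKM in the controls. The approximate depth, read from the steps between low values, was 21.64 and 10.36 M (megareads) with curcumin and 20.77 and 17.77 M in the controls. Control library 1 stood apart from the other HCT116 libraries, with 15039 genes of all types at 1 FPKM or more against 13294 to 13938, and with 2.72% of its summed level in long non-coding RNAs against 1.84% to 2.32%. Curcumin library 2, the shallowest, stood apart in another way, with 80.9% of its summed level in protein-coding genes against 82.0% to 84.5%.

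As background, cells meet electrophiles and oxidants with a program led by NRF2, a transcription factor that the adaptor KEAP1 holds for degradation until reactive molecules modify it. NRF2 then binds antioxidant response elements and raises enzymes that make glutathione, reduce quinones, supply NADPH and store iron in ferritin. Another program, the integrated stress response, acts through phosphorylation of the initiation factor eIF2α and the transcription factors ATF4 and CHOP. Both programs are known to respond to electrophilic plant compounds.

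Changes were small for most genes. The log2 fold change of curcumin over control, on the log2(FPKM + 1) scale, had a median of -0.00 over the 10559 protein-coding genes, and 5% of them lay below -0.24 and 5% above 0.23. An absolute log2 fold change above 0.5 was seen in 70 genes, and one above 1 in 4 genes. With limma and Benjamini-Hochberg adjustment over all 16341 genes tested, 26 protein-coding genes were called at an adjusted p below 0.05, which was 0.246% of the protein-coding genes and compares with 0.171% of all genes tested. Of the 26 genes, 15 rose (0.142%, against 0.104% of all genes tested) and 11 fell (0.104%, against 0.0673% of all genes tested), with adjusted p-values of 0.0174 to 0.0456. At an unadjusted p below 0.05 there were 750 higher (7.1%) and 733 lower genes (6.94%), which is the background for the counts at an unadjusted p given for the groups below. Both curcumin libraries lay above both controls in 21.1% of the protein-coding genes and below both controls in 21.0%, which is the background for the counts of separated genes given for the groups below. Selection by a low p favours groups that do not overlap, so for the called genes a lack of overlap is no added evidence. The calls rest on the spread pooled over the 8 libraries of both cell lines. Without curcumin library 1, curcumin library 2, control library 1 or control library 2 none of the 26 was called (unadjusted p below 0.05 in 1568, 876, 1209 and 1525 protein-coding genes), nor with the 4 HCT116 libraries alone, and all 26 kept their direction in each of these fits.

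**Figure D1:**
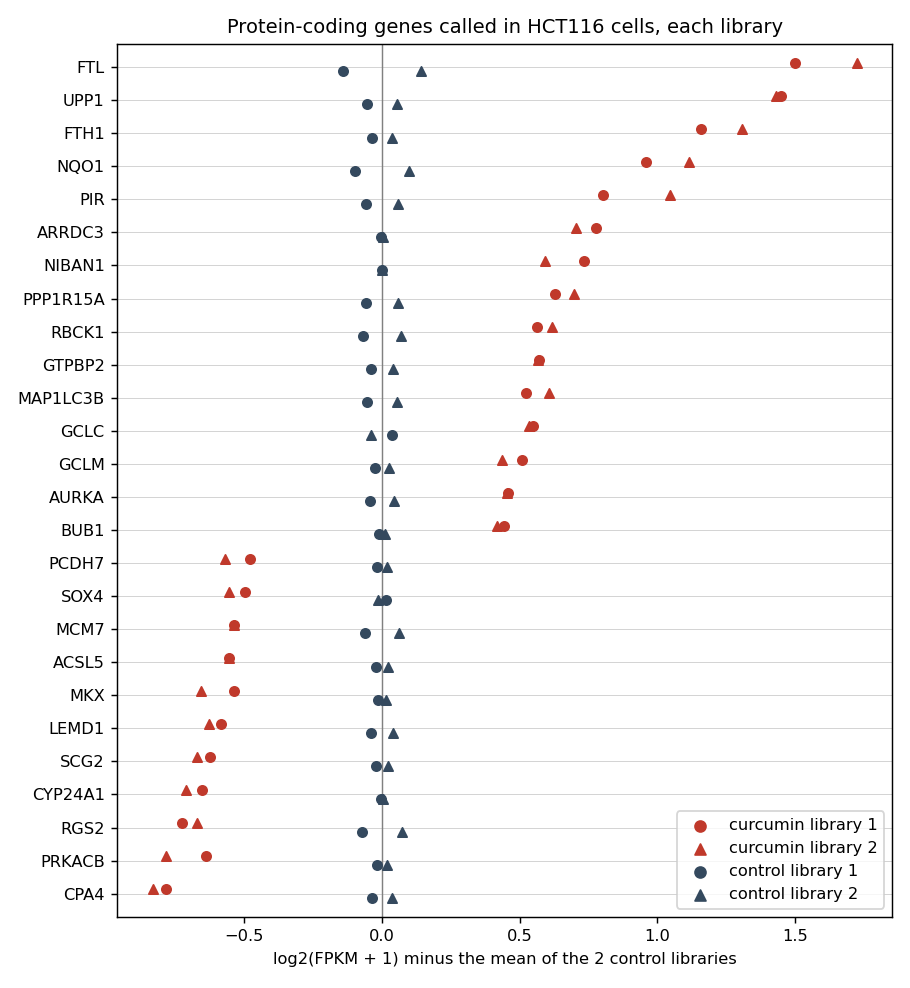
Level of the 26 called protein-coding genes in each HCT116 library, as log2(FPKM + 1) minus the mean of the 2 control libraries (horizontal axis), with curcumin libraries in red and controls in dark blue. The 15 genes that rose are led by FTL and UPP1, the 11 that fell are led by CPA4, and in none of the 26 did the groups overlap, which selection by p favours.

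The change in the iron storage genes was among the largest. Ferritin is a hollow shell of light and heavy chains that stores iron inside the cell, and both chain genes rose. FTL, the light chain, had 1839 and 2152 FPKM with curcumin and 589 and 717 FPKM in the controls. FTH1, the heavy chain that oxidizes ferrous iron, had 110 and 122 FPKM with curcumin and 47.4 and 49.9 FPKM in the controls. In both genes the lower curcumin library was more than 2 times the higher control library. The log2 fold changes were 1.61 (SE 0.16, adjusted p = 0.0446) for FTL and 1.23 (SE 0.10, adjusted p = 0.0302) for FTH1. Processed pseudogenes of both genes share their sequence, and reads can be split between them and the parent gene. Only pseudogenes that reached 1 FPKM in any HCT116 library were summed. The 4 such FTL pseudogenes summed to 82.8 and 101 FPKM with curcumin and to 27.6 and 28.1 FPKM in the controls. The 13 such FTH1 pseudogenes summed to 35.4 and 46.7 FPKM with curcumin and to 22.7 and 24.9 FPKM in the controls. The exact levels of the parent genes are therefore uncertain.

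Among the 23 measured genes of iron and heme, the 2 ferritins were called and the median log2 fold change was 0.11. Without control library 1 this median was 0.01, so the list as a whole did not share the size of the ferritin change. HMOX1, the inducible heme oxygenase that frees iron from heme, had 12.5 and 14.9 FPKM with curcumin and 8.62 and 9.98 FPKM in the controls, a log2 fold change of 0.51 with an adjusted p of 0.244. TFRC, the transferrin receptor that takes up iron, had a log2 fold change of 0.28 (adjusted p = 0.136) and its groups did not overlap. CPOX, an enzyme of heme synthesis, lay on the other side, with 136 and 134 FPKM with curcumin and 180 and 182 FPKM in the controls, a log2 fold change of -0.42 with an adjusted p of 0.0827.

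Enzymes known as NRF2 targets formed the next group of called genes. NQO1, the quinone reductase often read as a marker of NRF2 activity, had 259 and 288 FPKM with curcumin and 124 and 142 FPKM in the controls, and rose by a log2 fold change of 1.04 (SE 0.09, adjusted p = 0.0302). PIR, which encodes pirin, an iron-binding nuclear protein, had 15.8 and 18.9 FPKM with curcumin and 8.26 and 9.05 FPKM in the controls, and rose by 0.93 on the log2 scale (SE 0.10, adjusted p = 0.0456). Both subunits of glutamate-cysteine ligase, the rate-limiting enzyme of glutathione synthesis, were called as well. GCLC, the catalytic subunit, had 26.7 and 26.5 FPKM with curcumin and 18.5 and 17.5 FPKM in the controls (log2 fold change 0.54, SE 0.05, adjusted p = 0.0302). GCLM, the modifier subunit, had 16.3 and 15.5 FPKM with curcumin and 10.96 and 11.40 FPKM in the controls (log2 fold change 0.47, SE 0.05, adjusted p = 0.0456). The 2 libraries of each group were close to each other in both subunits and the groups were well apart.

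Other antioxidant genes had values above the controls that did not pass the test. NADPH, the reducing power that quinone and glutathione reduction consume, is made among others by ME1, the cytosolic malic enzyme. ME1 had 52.4 and 52.8 FPKM with curcumin and 31.9 and 35.7 FPKM in the controls, a log2 fold change of 0.62 (adjusted p = 0.0827). Its groups did not overlap. Thioredoxin and its reductase keep protein thiols reduced, and TXN and TXNRD1 had log2 fold changes of 0.53 (adjusted p = 0.210) and 0.29 (adjusted p = 0.148). The peroxiredoxin gene PRDX1 had 263 and 305 FPKM with curcumin and 209 and 221 FPKM in the controls (log2 fold change 0.39, adjusted p = 0.171). SLC7A11, the cystine carrier that feeds glutathione synthesis, had 54.9 and 46.5 FPKM with curcumin and 40.2 and 35.1 FPKM in the controls (log2 fold change 0.42, adjusted p = 0.186). NFE2L2, which encodes NRF2 itself, had 39.5 and 40.2 FPKM with curcumin and 34.7 and 36.3 FPKM in the controls, a log2 fold change of 0.16 (adjusted p = 0.308), and its mRNA does not measure the protein.

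By list, 2 of 23 glutathione genes (median log2 fold change 0.11), 2 of 12 quinone, carbonyl and aldo-keto reductases (0.12), 0 of 15 thioredoxin and peroxiredoxin genes (0.07), 0 of 12 genes of NADPH supply (0.10) and 0 of 11 genes of NRF2 and its regulators (0.16) were called, all higher. In the last 3 lists, which had no call, the unadjusted p was below 0.05 in 4 genes each, all of them higher with curcumin, as 7.1% of the protein-coding genes were at this p. Within these families the change was uneven, since each list also held genes with log2 fold changes below 0.

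Promoters of the called genes were searched for the core of the antioxidant response element, written TGACNNNGC, on both strands of the 250 bases before the RefSeq start. A promoter was listed for 22 of the 26 called genes. The core was found in 4 of them, in 3 of 13 genes that rose and in 1 of 9 genes that fell, while 11.0% of 27305 promoters and 12.2% of 8612 promoters of protein-coding genes in this comparison held it. These 4 stretches, taken from RefSeq on GRCh38.p14, are shown because they are the called genes whose promoters hold the core, and capitals mark the match on either strand. The GCLM stretch is at chr1:93909431-93909494 on the minus strand, that of MAP1LC3B at chr16:87392260-87392328, that of PPP1R15A at chr19:48872212-48872307 with 2 matches, and that of CPA4 at chr7:130293116-130293160, the last 3 on the plus strand.
GCLM: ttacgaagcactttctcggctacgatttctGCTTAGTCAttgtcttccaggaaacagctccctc
MAP1LC3B: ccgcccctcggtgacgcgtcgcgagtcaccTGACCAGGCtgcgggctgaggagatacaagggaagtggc
PPP1R15A: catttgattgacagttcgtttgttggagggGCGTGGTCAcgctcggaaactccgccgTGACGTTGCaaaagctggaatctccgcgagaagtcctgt
CPA4: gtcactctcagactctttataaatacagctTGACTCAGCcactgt
The match in GCLM began 34 bases before the start, that in MAP1LC3B 46 bases, those in PPP1R15A 179 and 152 bases, and that in CPA4 15 bases before it. CPA4, which holds the match closest to its start, was a gene that fell, and a match is a description of the sequence and not of binding. The promoters of NQO1, GCLC and FTL held no match in this window, and FTH1 was not listed. Over the 5 antioxidant lists together, 12 of 60 listed promoters held the core. The composite element of ATF4 and C/EBP, written TGATGNAA, was in none of the 22 called promoters, and in 3 of 18 promoters of the integrated stress response list, against 3.19% of all promoters and 1.27% of those of protein-coding genes in this comparison.

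PPP1R15A, NIBAN1 and GTPBP2 also rose. PPP1R15A, which encodes GADD34 and leads the phosphatase that removes phosphate from eIF2α, had 42.3 and 44.4 FPKM with curcumin and 25.9 and 28.1 FPKM in the controls (log2 fold change 0.66, SE 0.07, adjusted p = 0.0446). NIBAN1, a gene induced in cells under endoplasmic reticulum stress, had 11.5 and 10.4 FPKM with curcumin and 6.54 and 6.55 FPKM in the controls (log2 fold change 0.66, SE 0.07, adjusted p = 0.0456). GTPBP2, a GTPase known in mice for the rescue of stalled ribosomes, had 30.8 FPKM in both curcumin libraries and 19.9 and 21.03 FPKM in the controls (log2 fold change 0.57, SE 0.05, adjusted p = 0.0302). The 3 genes had no overlap between groups.

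PPP1R15A was the one called gene of 21 on the integrated stress response list, whose median log2 fold change was 0.07. DDIT3, which encodes CHOP, had 33.1 and 34.4 FPKM with curcumin and 21.5 and 25.9 FPKM in the controls, a log2 fold change of 0.50 (adjusted p = 0.136). ATF5, another transcription factor of the response, had 9.32 and 9.92 FPKM with curcumin and 5.31 and 7.01 FPKM in the controls (log2 fold change 0.58, adjusted p = 0.185). EIF2AK3, which encodes the eIF2α kinase PERK, lay below the controls at 6.24 and 5.51 FPKM with curcumin and 8.37 and 7.86 FPKM in the controls (log2 fold change -0.41, adjusted p = 0.120). The aminoacyl-tRNA synthetases of the cytosol, which charge tRNAs and include many ATF4 targets, had a median log2 fold change of 0.13, with 14 of 18 genes separated above the controls, 0 separated below and 0 called (6 with an unadjusted p below 0.05). WARS1 was first by p among them, with 22.5 and 23.5 FPKM with curcumin and 15.6 and 17.7 FPKM in the controls (log2 fold change 0.45, adjusted p = 0.10). GOT1, the cytosolic aspartate aminotransferase, had the largest log2 fold change among protein-coding genes that passed the study's threshold but were not called, 0.86, with 105 and 115 FPKM with curcumin and 55.0 and 65.4 FPKM in the controls (adjusted p = 0.0693).

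Other called genes act in nucleoside use, ubiquitin chains, autophagy and receptor turnover. UPP1, the uridine phosphorylase that releases ribose phosphate from uridine, had 13.4 and 13.3 FPKM with curcumin and 4.09 and 4.50 FPKM in the controls. Its log2 fold change of 1.44 (SE 0.09, adjusted p = 0.0174) had the smallest adjusted p of the protein-coding genes. UPP1 stood alone in its family, as none of the other 17 measured genes of pyrimidine metabolism was called and the list had a median of -0.03. ARRDC3, an arrestin domain protein of receptor trafficking, had 17.1 and 16.2 FPKM with curcumin and 9.52 and 9.57 FPKM in the controls (log2 fold change 0.74, SE 0.06, adjusted p = 0.0302). RBCK1, a subunit of the complex that builds linear ubiquitin chains, had 36.6 and 38.1 FPKM with curcumin and 23.3 and 25.7 FPKM in the controls (log2 fold change 0.59, SE 0.06, adjusted p = 0.0456).

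MAP1LC3B, the LC3B protein that coats autophagosome membranes, had 43.5 and 46.0 FPKM with curcumin and 28.8 and 31.1 FPKM in the controls (log2 fold change 0.57, SE 0.06, adjusted p = 0.0456). SQSTM1, the p62 cargo receptor that binds both LC3 and KEAP1, was the first protein-coding gene outside the threshold, with 46.3 and 48.0 FPKM with curcumin and 31.2 and 34.1 FPKM in the controls (log2 fold change 0.52, SE 0.06, adjusted p = 0.0503). The highest adjusted p among the called genes was 0.0456, which several of them shared. Of 25 measured genes of lysosome and autophagy, MAP1LC3B alone was called, the median log2 fold change was 0.09, and 13 genes were separated above the controls and 3 below.

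**Figure D2:**
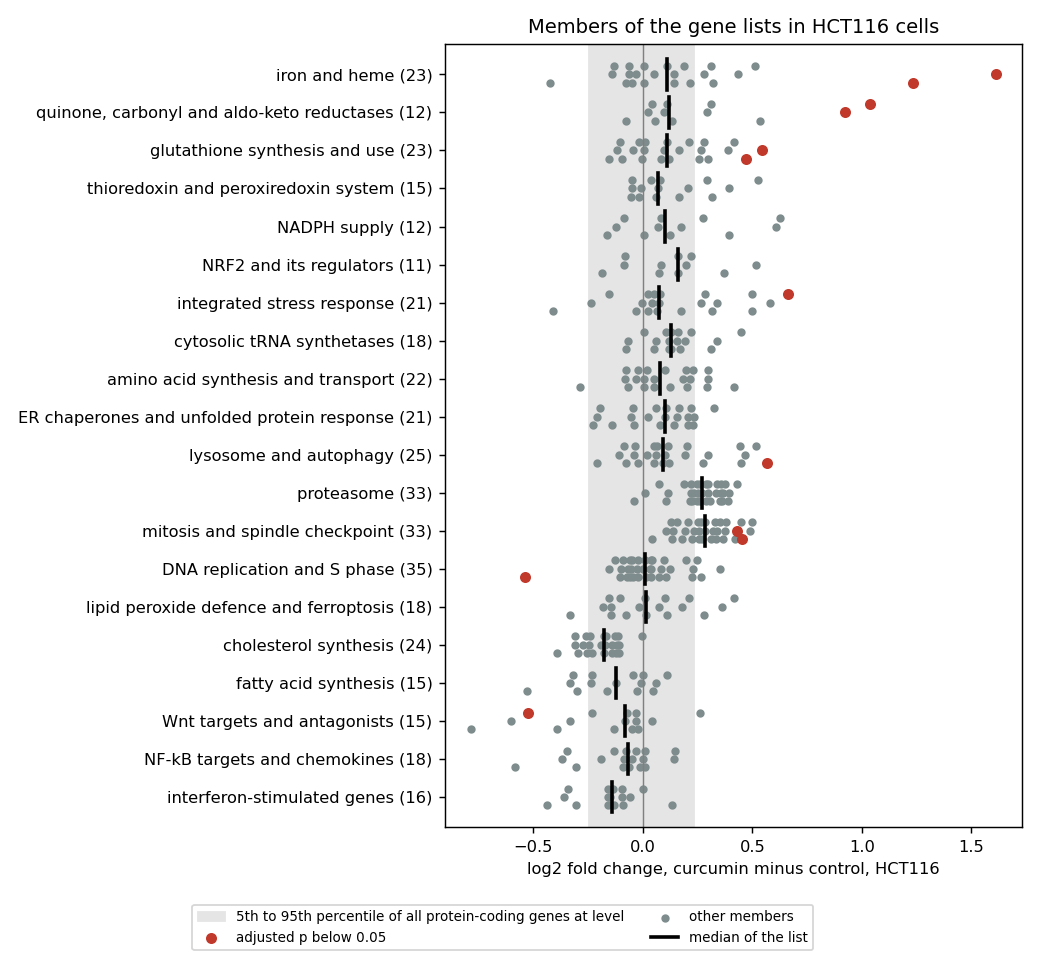
Log2 fold change of curcumin over control in HCT116 cells for the measured members of 20 gene lists (number in brackets), with called genes in red, other members in grey, the list median as a black bar and the 5th to 95th percentile of all 10559 protein-coding genes shaded. The medians of the proteasome and of mitosis and spindle checkpoint lie at 0.27 and 0.28, and that of cholesterol synthesis at -0.18, while iron and heme and the reductases hold called genes far from their medians.

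Genes of mitosis were higher with curcumin as a group. The 33 measured genes of mitosis and spindle checkpoint had a median log2 fold change of 0.28, 33 of 33 had a value above 0, and 29 were separated above the controls with 0 below. AURKA, the mitotic kinase of the centrosome, had 20.5 FPKM in both curcumin libraries and 14.2 and 15.2 FPKM in the controls, and rose by 0.45 on the log2 scale (SE 0.05, adjusted p = 0.0456). BUB1, a kinase of the spindle checkpoint, had 20.9 and 20.5 FPKM with curcumin and 15 and 15.3 FPKM in the controls, and rose by 0.43 (SE 0.05, adjusted p = 0.0456). These were the 2 called genes of the list. KIF2C, a kinesin that takes microtubules apart at centromeres, had 27.4 and 28.0 FPKM with curcumin and 18.4 and 20.2 FPKM in the controls (log2 fold change 0.50, adjusted p = 0.0652). BUB1B, which encodes the checkpoint protein BUBR1, had 20.6 and 19.8 FPKM with curcumin and 15.8 and 15.9 FPKM in the controls (log2 fold change 0.33, adjusted p = 0.0842). CDKN3, a phosphatase that acts on cyclin-dependent kinases, was not on this list. It had 12.5 and 16.7 FPKM with curcumin and 8.44 and 9.29 FPKM in the controls (log2 fold change 0.65, adjusted p = 0.159). Without control library 1 the median of the mitotic list was 0.21.

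Genes of DNA replication did not follow the mitotic genes. The 35 measured genes of that list had a median log2 fold change of 0.01, with 9 separated above and 5 below the controls, and its one called gene fell. MCM7, a subunit of the replicative helicase, had 35.3 and 35.4 FPKM with curcumin and 49.5 and 54.0 FPKM in the controls (log2 fold change -0.54, SE 0.06, adjusted p = 0.0456). RRM2, the ribonucleotide reductase subunit that peaks in S phase, lay on the other side with 25.8 and 26.6 FPKM with curcumin and 18.7 and 21.98 FPKM in the controls (log2 fold change 0.35, adjusted p = 0.186). Bulk RNA does not tell a larger share of cells in mitosis from more mRNA in each cell.

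A short element with the letters TTTGAA, known as the cell cycle genes homology region, marks many promoters that are active in G2 and M phase. It was looked for after the values were seen. The 6 letters were found on either strand within 250 bases before the start in 13 of 27 listed promoters of the mitotic list, against 13.6% of all promoters and 7.91% of those of protein-coding genes in this comparison. BUB1B is shown as the mitotic gene with the smallest p that holds a match, at chr15:40161016-40161068 on the plus strand of GRCh38.p14, with the match in capitals 23 bases before the start.
BUB1B: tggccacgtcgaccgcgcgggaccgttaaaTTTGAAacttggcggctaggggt
BUB1 held no match in this window, and AURKA was not listed. Of the called genes, 0 of 13 that rose and 2 of 9 that fell, LEMD1 and PCDH7, held these letters.

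Subunits of the proteasome, the complex that degrades ubiquitin-tagged proteins, were also higher as a group. The 33 measured genes had a median log2 fold change of 0.27, 32 had a value above 0, 26 were separated above the controls and 0 below, and 23 had an unadjusted p below 0.05, but none was called. PSMD11, a subunit of the regulatory lid, had 21.9 and 22.1 FPKM with curcumin and 16.3 and 17.5 FPKM in the controls (log2 fold change 0.36, SE 0.05, adjusted p = 0.0827). PSMC2, an ATPase of the regulatory base, had 10.9 and 11.6 FPKM with curcumin and 8.52 and 8.97 FPKM in the controls (log2 fold change 0.33, adjusted p = 0.133). PSMB2, a subunit of the core, had 41.7 and 45.3 FPKM with curcumin and 31.2 and 34.8 FPKM in the controls (log2 fold change 0.39, adjusted p = 0.148). NFE2L1, the NRF2 relative known for raising proteasome genes, had 57.2 and 60.1 FPKM with curcumin and 44.0 and 46.3 FPKM in the controls (log2 fold change 0.37, adjusted p = 0.132). For comparison, the 10 housekeeping genes had a median of 0.10 with 4 separated above the controls, and the 20 cytosolic heat shock proteins had a median of 0.02 with 6 above and 2 below. Whether the housekeeping shift has a part in the proteasome values was not tested.

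**Figure D3:**
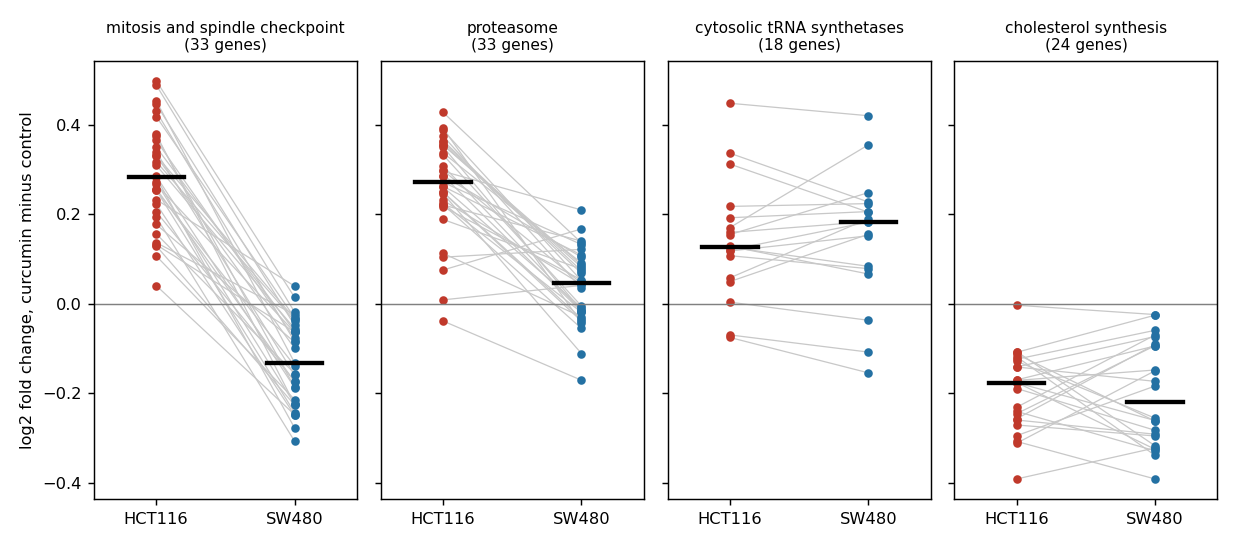
Log2 fold change of curcumin over control for each measured gene of 4 lists in HCT116 cells (red, left) and SW480 cells (blue, right), with lines joining a gene's values and black bars at the medians. The mitotic list has medians of 0.28 in HCT116 and -0.13 in SW480 cells and the proteasome list 0.27 and 0.05, whereas the medians of the other 2 lists have the same sign in both lines.

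The genes that fell were diverse, with regulators of signalling and transcription among them. CPA4, a secreted carboxypeptidase, had 9.60 and 9.25 FPKM with curcumin and 16.8 and 17.7 FPKM in the controls, and fell by 0.81 on the log2 scale (SE 0.06, adjusted p = 0.0302). PRKACB, a catalytic subunit of protein kinase A, had 37.5 and 33.8 FPKM with curcumin and 58.3 and 59.8 FPKM in the controls (log2 fold change -0.71, SE 0.08, adjusted p = 0.0456). RGS2, which switches off G proteins of the Gq class, had 6.46 and 6.75 FPKM with curcumin and 10.7 and 11.97 FPKM in the controls (log2 fold change -0.70, SE 0.08, adjusted p = 0.0456). In each of these 3 genes the higher curcumin library was clearly below the lower control library.

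A pair of transcription factors fell. SOX4, a factor of progenitor cells and of many carcinomas, had 65.5 and 62.9 FPKM with curcumin and 93.8 and 91.8 FPKM in the controls (log2 fold change -0.53, SE 0.05, adjusted p = 0.0412). MKX, a homeobox factor known from tendon, had 12.7 and 11.7 FPKM with curcumin and 18.7 and 19.2 FPKM in the controls (log2 fold change -0.60, SE 0.06, adjusted p = 0.0456). CYP24A1, the hydroxylase that inactivates vitamin D, had 7.58 and 7.24 FPKM with curcumin and 12.4 and 12.5 FPKM in the controls (log2 fold change -0.68, SE 0.06, adjusted p = 0.0302). ACSL5, an acyl-CoA synthetase for long-chain fatty acids, had 54.7 and 54.6 FPKM with curcumin and 79.5 and 82.0 FPKM in the controls (log2 fold change -0.56, SE 0.06, adjusted p = 0.0456). The remaining genes that fell were SCG2, a secretory granule protein, LEMD1, a protein with a LEM domain, and PCDH7, a protocadherin of cell contacts, with log2 fold changes of -0.65, -0.61 and -0.52.

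Genes of the sterol pathway were lower with curcumin as a group. The 24 measured genes of cholesterol synthesis had a median log2 fold change of -0.18, 24 of 24 were below 0, 21 were separated below the controls and 0 above, and 11 had an unadjusted p below 0.05, although none was called. With libraries scaled to a common median, 15 were separated below the controls and the list median was -0.15. HMGCS1, an early enzyme of the pathway, had 31.0 and 29.9 FPKM with curcumin and 41.1 and 39.5 FPKM in the controls (log2 fold change -0.39, SE 0.06, adjusted p = 0.112). SREBF2, which encodes the main transcription factor of the pathway, had 47.0 and 49.3 FPKM with curcumin and 57.3 and 61.3 FPKM in the controls (log2 fold change -0.29, adjusted p = 0.159). Of the 15 genes of fatty acid synthesis, 8 were separated below the controls and 2 above, with a median of -0.12. FASN, the fatty acid synthase, had 124 and 117 FPKM with curcumin and 165 and 184 FPKM in the controls (log2 fold change -0.53, adjusted p = 0.0693).

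The threshold of the methods (unadjusted p below 0.05 and an absolute log2 fold change above 0.5) was passed by 65 protein-coding genes, 0.616% of the total against 1.85% of all genes tested, of which 31 were higher (0.294%) and 34 lower (0.322%) with curcumin. All 65 had groups that did not overlap, which this threshold itself favours, and 12 of them stayed below 5 FPKM. Among the lower genes that passed it without being called, DKK1, a secreted Wnt antagonist, had 23.3 and 26.9 FPKM with curcumin and 39.9 and 48.0 FPKM in the controls (log2 fold change -0.78, adjusted p = 0.116). WNT16, a Wnt ligand, had 26.4 and 23.0 FPKM with curcumin and 36.2 and 39.5 FPKM in the controls (log2 fold change -0.60, adjusted p = 0.0827). KITLG, the ligand of the receptor KIT, had 246 and 219 FPKM with curcumin and 362 and 356 FPKM in the controls (log2 fold change -0.63, adjusted p = 0.0529). CAV1, the coat protein of caveolae, had 91.4 and 90.1 FPKM with curcumin and 128 and 146 FPKM in the controls (log2 fold change -0.58, adjusted p = 0.0541). CXCL8, the chemokine interleukin-8, had 3.45 and 4.31 FPKM with curcumin and 5.65 and 6.99 FPKM in the controls (log2 fold change -0.58, adjusted p = 0.198). Over the 15 measured growth factors and ligands, KITLG included, the median log2 fold change was 0.09, 4 genes were higher and 4 lower at an unadjusted p below 0.05, and 0 were called. SOX4 was the one called gene of 15 Wnt targets and antagonists, whose median log2 fold change was -0.08, with 2 genes separated above the controls and 7 below.

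The study is concerned with ferroptosis, an iron-dependent death through lipid peroxides, and named its repressors GPX4 and AIFM2 (FSP1). By quantitative PCR, the paper reports significantly lower mRNA of both genes with curcumin alone in HCT116 cells. It also reports lower protein of both by Western blotting. From the sequencing, the paper reports ferroptosis as the most enriched pathway among genes changed by both curcumin and andrographis in HCT116 cells. That pathway analysis was not repeated here. With curcumin alone the paper also reports more reactive oxygen species and lipid peroxides in HCT116 cells. Ferrostatin-1, an inhibitor of ferroptosis, reversed part of the growth effect of the combined treatment, according to the paper. GPX4, which reduces lipid peroxides with glutathione, had 83.3 and 95.3 FPKM with curcumin and 69.2 and 85.6 FPKM in the controls. The groups overlapped, and the log2 fold change was 0.21 (SE 0.11, adjusted p = 0.549). AIFM2, which reduces coenzyme Q at membranes, had 6.51 and 7.13 FPKM with curcumin and 4.84 and 5.34 FPKM in the controls. Its groups did not overlap, and the log2 fold change was 0.36 (SE 0.07, adjusted p = 0.162). In the sequencing values both log2 fold changes were thus positive, opposite in direction to the PCR result, although neither gene was called. The reason for this difference was not tested. None of the 18 measured genes on the list of lipid peroxide defence and ferroptosis was called. At an unadjusted p below 0.05 there were 3 in each direction, and the median of the list was 0.01. The called genes FTL, FTH1, GCLC, GCLM, MAP1LC3B and ACSL5, described above, were not on this list, so it does not cover all genes tied to ferroptosis. GAPDH, given as a level reference, had 589 and 632 FPKM with curcumin and 509 and 599 FPKM in the controls, with overlapping groups (log2 fold change 0.14, adjusted p = 0.641).

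The 26 genes were then followed in SW480 cells, fitted in the same model. They were chosen by their calls in HCT116 cells, which favours larger changes there than in SW480 cells. Of the 15 genes that rose in HCT116 cells, 13 had a positive log2 fold change in SW480 cells and 6 were called there, where 0.161% of the protein-coding genes were called higher. The median log2 fold change of the 15 was 0.66 in HCT116 and 0.55 in SW480 cells. UPP1 had 23.9 and 28.7 FPKM with curcumin and 9.07 and 9.22 FPKM in the controls of SW480 cells, a log2 fold change of 1.42 beside 1.44 in HCT116 cells. NQO1 was also called in SW480 cells, with 110 and 120 FPKM with curcumin and 67.8 and 68.9 FPKM in the controls (log2 fold change 0.74, adjusted p = 0.0495). PPP1R15A, with a log2 fold change of 0.89 in SW480 cells, GCLC (0.46), GTPBP2 (0.55) and NIBAN1 (0.76) completed the 6. FTL had a log2 fold change of 0.76 in SW480 cells, where it was not called (adjusted p = 0.135), against 1.61 in HCT116 cells.

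Of the 11 genes that fell in HCT116 cells, 8 had a negative log2 fold change in SW480 cells and none was called there (0.0852% of the protein-coding genes were called lower). Their median log2 fold change was -0.61 in HCT116 and -0.06 in SW480 cells. For 6 of them the level in SW480 controls was under 3 FPKM, and for 4 of these it was under 1 FPKM, which leaves little or no fall to measure. CPA4, for example, had 0 FPKM in both SW480 curcumin libraries and 0 and 0.0116 FPKM in the SW480 controls. MCM7 was well measured in SW480 cells, with 95.5 and 94.0 FPKM with curcumin and 132 and 128 FPKM in the controls, a log2 fold change of -0.45 (adjusted p = 0.0519) beside -0.54 in HCT116 cells.

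**Figure D4:**
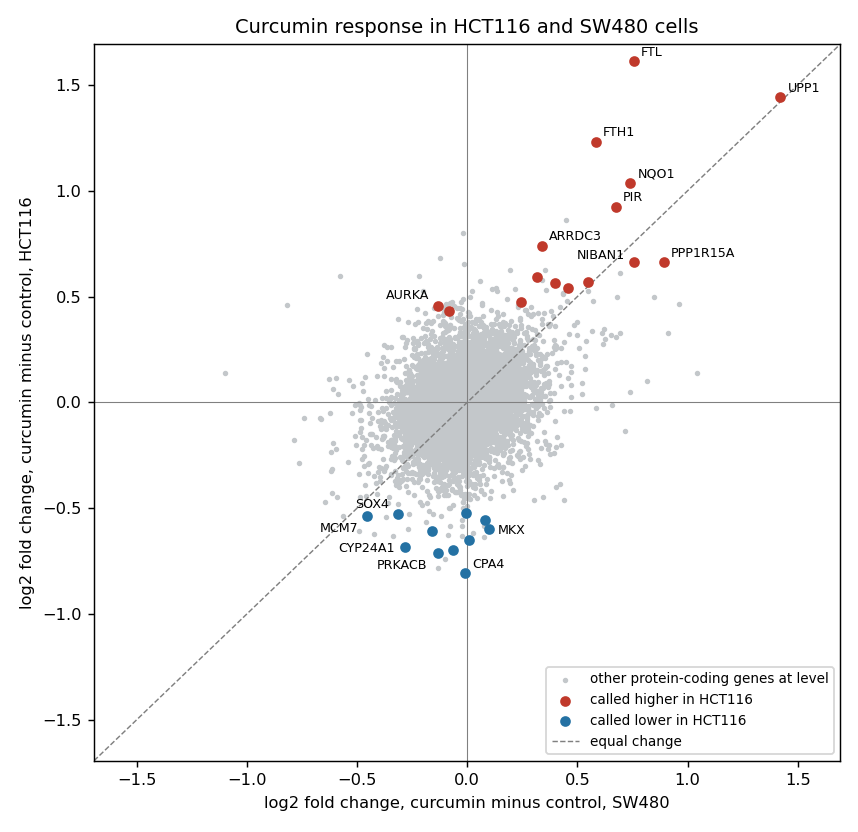
Log2 fold change of curcumin over control in HCT116 cells (vertical axis) and SW480 cells (horizontal axis) for the 10559 protein-coding genes, with the 26 genes called in HCT116 cells coloured and the dashed line marking equal change. UPP1 lies on the line, FTL and FTH1 lie above it, AURKA lies left of 0, and most genes that fell in HCT116 cells lie near 0 on the SW480 axis.

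The difference between the cell lines was tested gene by gene with an interaction contrast. No gene passed an adjusted p of 0.05 (0.0%), the smallest adjusted p was 0.192, and 880 protein-coding genes (8.33%) had an unadjusted p below 0.05. None of the differences named here is therefore shown for a single gene after adjustment. By the paper's account the curcumin dose differed between the lines, so cell line and dose cannot be told apart in this contrast. Among the mitotic genes, 26 of 33 had an unadjusted interaction p below 0.05, all with a higher log2 fold change in HCT116 cells (4.75% of the protein-coding genes), and 2 of 33 had a positive log2 fold change in SW480 cells. AURKA had 33.9 and 33.6 FPKM with curcumin and 37.4 and 36.7 FPKM in the controls of SW480 cells, a log2 fold change of -0.13, and its difference between the lines was 0.59 (SE 0.07). Among the proteasome genes, 9 of 33 had an unadjusted interaction p below 0.05, all with a higher log2 fold change in HCT116 cells. For cholesterol synthesis, with a median of -0.18 in HCT116 and -0.22 in SW480 cells, and for the tRNA synthetases, with 0.13 and 0.18, the counts were 0 of 24 and 1 of 18. ATF3, a transcription factor of the stress response chosen here after its values were seen, had 12.4 and 12.6 FPKM with curcumin and 14.2 and 15.7 FPKM in the controls of HCT116 cells (log2 fold change -0.24, adjusted p = 0.234), whereas in SW480 cells it had 2.90 and 2.73 FPKM with curcumin and 1.86 and 1.95 FPKM in the controls (log2 fold change 0.39, adjusted p = 0.0877). In the fit with protein-coding genes only (11431 genes tested), the difference between the lines passed an adjusted p of 0.05 in 26 protein-coding genes. AURKA, BUB1 and ATF3 were among them. That fit was more permissive throughout, with 198 protein-coding genes called in HCT116 cells. With libraries scaled to a common median, without the variance trend or with a replicate block, the difference passed in 0 protein-coding genes.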

How the data were processed

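Total RNA of HCT116 and SW480 cells was sequenced by the authors after 16 h with curcumin. The deposited table holds log2(value + 1) per gene and library. Per the labels, the processing notes of the authors name bcl2fastq 2.20.0.422, STAR 2.7.8a, Partek 10.0.22.0121, DESeq2 and the build GRCh38 (mm10 is named too), while roles, counter and annotation are not given in the sources used here. In low microRNA genes the back-transformed values took whole multiples of a step per gene and library (97.5% to 98.7% within 0.01 times the read number, up to 20 reads), as FPKM does, so they are called FPKM; depth is approximate and no count test was run.

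Values were read with Python 3.11.15 and pandas 2.3.3, and figures drawn with matplotlib 3.10.9. With limma 3.58.1 in R 4.3.3, 4 group means were fitted to log2(FPKM + 1) of the 8 libraries of the experiment (lmFit, eBayes with trend, 4 residual degrees of freedom, no block). Tested were 16341 genes of any type, which reached 1 FPKM in 2 or more of the 8 libraries, with Benjamini-Hochberg adjustment over all of them. A fold change on this scale understates the change of low genes. Called means an adjusted p below 0.05, and separated means that both curcumin libraries lay on one side of both controls. The procedure was tested on simulated data.

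The protein-coding genes, the 39 gene lists and the tests were chosen with earlier results of these data known. Named genes were all called genes, the 15 largest rises and falls at the threshold of the methods with separated groups and at least 5 FPKM in the higher group, up to 4 genes per list by p, and GPX4, AIFM2 and GAPDH. HMOX1 and ATF3 were named outside this rule, after their values were seen. RefSeq promoters were matched by symbol, 1 per gene. Alternatives were other scaling, pseudocounts, filters, variance model, gene types and libraries, a replicate block, and each library left out. The andrographis experiment was not analysed here. Some genes of the lists are not reported here.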

Additional observations from a re-analysis of the deposited data

How the results depend on the processing

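The count of called protein-coding genes depended strongly on the settings, while the direction of the 26 genes did not change in any alternative in which they were tested. Against 15 higher and 11 lower genes, there were 1 and 0 after scaling to a common median, 6 and 1 at a pseudocount of 0.1, 27 and 46 at a pseudocount of 10, 57 and 60 with a filter at 10 FPKM (5420 genes tested), 1 and 2 without the variance trend, 87 and 111 with protein-coding genes only in the fit (11431 genes tested), and 0 and 0 with the 4 HCT116 libraries alone, which leave 2 residual degrees of freedom (835 protein-coding genes at an unadjusted p below 0.05). All 26 stayed called at a pseudocount of 10 and with protein-coding genes only, and 25 of 25 tested with the filter at 10 FPKM. With each library left out the higher calls ranged from 0 to 2 and the lower calls were 0, and the 2 calls were kept without either SW480 curcumin library. At the threshold of the methods, 31 higher and 34 lower genes became 60 and 78 at a pseudocount of 0.1, 10 and 5 at a pseudocount of 10, and 21 lower with a filter at 10 FPKM, with ranges of 24 to 82 higher and 34 to 79 lower when a library was left out. The difference between the cell lines was called in 5 protein-coding genes with the filter at 10 FPKM, 9 at a pseudocount of 10 and 26 with protein-coding genes only.

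Of the list medians, the proteasome was at 0.18 and mitosis and spindle checkpoint at 0.19 at a pseudocount of 10, and glutathione synthesis and use at 0.21 with a filter at 10 FPKM. Leaving out a library gave the proteasome 0.23 to 0.36, mitosis and spindle checkpoint 0.21 to 0.36, cholesterol synthesis -0.28 to -0.14, cytosolic tRNA synthetases 0.10 to 0.17, iron and heme 0.011 to 0.21, the quinone, carbonyl and aldo-keto reductases 0.11 to 0.19, glutathione synthesis and use 0.048 to 0.18, and the integrated stress response 0.070 to 0.11. These medians kept their sign. In the fit with a replicate block, 16 genes were called, 11 higher and 5 lower, and 15 of the 26 stayed called. GCLM, PPP1R15A, AURKA, BUB1, PRKACB, RGS2, LEMD1, MKX, ACSL5, MCM7 and PCDH7 lost the call, at adjusted p-values of 0.0604 to 0.0687. Libraries of the same number deviated together in HCT116 cells (r = 0.44 between curcumin and control over the protein-coding genes, and 0.20 over all genes tested). Between the other pairs of groups, SW480 cells included, r was also above 0. It was 0.10 to 0.32 over the protein-coding genes and 0.03 to 0.18 over all genes tested. With 2 numbers per group the labels do not show that they pair the samples. The cause of these shifts was not tested. The groups had 2 libraries each, and the shallowest HCT116 library held about 10.36 M.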

Other observations

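Beyond protein-coding genes, 2 of the 28 genes called in HCT116 cells were of other types and both were higher with curcumin. FTLP3, a processed pseudogene of the ferritin light chain, had 72.0 and 79.7 FPKM with curcumin and 23.4 and 25.4 FPKM in the controls (log2 fold change 1.60, SE 0.09, adjusted p = 0.0151 with limma), close to the log2 fold change of 1.61 of FTL, with which it shares sequence. MIR4306, a microRNA gene, had 2.03 and 2.12 FPKM with curcumin and was listed at 0 in both controls (adjusted p = 0.0302), so no fold change is given. In a gene this short such values stand for very few reads at the depth of these libraries, so the call rests on values near the floor.

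Several gene groups with no or few calls are given as values. The 16 measured interferon-stimulated genes had a median log2 fold change of -0.14, with 8 separated below the controls and 0 above, and 0 called. BST2, the antiviral tetherin, had 1.85 and 1.40 FPKM with curcumin and 2.62 and 2.45 FPKM in the controls (log2 fold change -0.44, adjusted p = 0.195). The 18 measured NF-kB targets and chemokines had a median of -0.07, with 9 separated below the controls and 0 above. BIRC3, an inhibitor of apoptosis protein, had 3.74 and 3.33 FPKM with curcumin and 4.75 and 4.76 FPKM in the controls (log2 fold change -0.35, adjusted p = 0.162). PLAU, the urokinase protease, had 32.4 and 36.2 FPKM with curcumin and 41.7 and 47.4 FPKM in the controls (log2 fold change -0.37, adjusted p = 0.189). Over the protein-coding genes, 21.1% were separated above the controls and 21.0% below.

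The 12 measured genes of the BCL2 family had a median log2 fold change of -0.04, with 0 called, and 0 higher and 1 lower at an unadjusted p below 0.05. The 21 endoplasmic reticulum chaperones and genes of the unfolded protein response had a median of 0.10, with 11 separated above the controls and 4 below. HYOU1, a chaperone of the endoplasmic reticulum, had 45.9 and 48.3 FPKM with curcumin and 36.7 and 38.1 FPKM in the controls (log2 fold change 0.32, adjusted p = 0.112). EGR1, an immediate early transcription factor, had 128 and 127 FPKM with curcumin and 90.0 and 99.9 FPKM in the controls (log2 fold change 0.42, adjusted p = 0.172), while the 23 measured genes of its list had a median of 0.01. CYP4F11, a fatty acid hydroxylase, had 14.98 and 13.4 FPKM with curcumin and 9.24 and 8.47 FPKM in the controls (log2 fold change 0.62, adjusted p = 0.0747). The tubulins, with 8 measured genes, had a median of 0.18 in HCT116 cells and -0.09 in SW480 cells, and 3 of the 8 had an unadjusted interaction p below 0.05. The 13 protein-coding genes of the mitochondrial genome had a median of -0.07, and mitochondrial transcripts of all types held 39.5% and 40.2% of the summed level with curcumin and 41.8% and 40.5% in the controls.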
